A study of Saccharomyces cerevisiae with 12 samples.

Results

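The 10 genes described here encode the core machinery that removes the cap of yeast mRNAs and the proteins that gather around it in P-bodies. They are EDC1, EDC2, EDC3, DCP1, DCP2, PAT1, DHH1, XRN1, SCD6 and SBP1, matched by RefSeq gene name among 5967 transcripts. All 10 were found, each as 1 transcript with 1 coding segment, and none overlaps another annotated gene.

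In budding yeast, most mRNAs are degraded by loss of the poly(A) tail, removal of the 5′ cap and digestion of the body from its 5′ end. Dcp2 is the catalytic subunit of the decapping enzyme and Dcp1 its essential partner, while Edc1, Edc2 and Edc3 enhance it. Pat1, the helicase Dhh1, Scd6 and Sbp1 repress translation or activate decapping, and Xrn1 is the 5′ to 3′ exonuclease that follows. Many of these proteins collect in P-bodies, cytoplasmic granules whose assembly in yeast leans on Edc3 and on the Q/N-rich tail of Lsm4.

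RNA was sequenced from 12 libraries of Saccharomyces cerevisiae labelled BY4741, in 6 groups of 2. All cells grew in medium lacking uracil at 30 °C to an OD600 of 0.4 to 0.5. WT cells were left untreated or given 100 mM sodium perchlorate (NaClO4), and so was the strain edc3∆lsm4∆C, in which EDC3 is deleted and Lsm4 lacks its C-terminal part. WT cells were also collected without a shock or after a shock wave of 5.6 Mach, and these are called unshocked and shocked. Nothing says that the 2 libraries of a group came from separate cultures, so each p-value measures only the spread between libraries, which may be technical. In bulk RNA, fewer cells that express a gene and less RNA per cell cannot be told apart.

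Values are normalized reads, which the authors made by dividing reads by a size factor within each of 5 comparison tables. Tests used limma on log2 of the value plus 1, so the fold change of a low transcript is understated, and a transcript is called at an adjusted p under 0.05. The libraries held 14108937 to 18360737 reads on 5871 to 5895 transcripts. The 5 tables share libraries, so comparisons with a common group are not independent of each other.

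The strains differed in more than the named mutations. The summed level of 6 genes of a cells was 1731 to 1860 CPM (reads scaled to a common library total) in untreated WT and 29.9 to 32.0 in the untreated mutant. For 4 genes of alpha cells it was 37.4 to 41.2 CPM in untreated WT and 1861 to 2268 in the untreated mutant. In perchlorate the a-cell sum was 564 to 667 CPM in WT and 35.0 to 36.3 in the mutant, and the alpha-cell sum 55.0 to 57.8 and 619.7 to 697. LEU2 and MET17 had 0 reads in untreated WT and at least 5366 in each mutant library. Strain background and the mutations therefore cannot be told apart in any comparison of genotypes below.

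The upstream sequences of EDC2 and its paralog EDC1 are printed because EDC2 was the member called in all 3 treatment comparisons. Each window holds 200 bases, from 300 to 101 bases before the coding start, from RefSeq assembly R64, whose annotation contains every transcript ID of the files. Capitals mark AGGGG on either strand (so also CCCCT), the stress response element that the yeast factors Msn2 and Msn4 recognise.
EDC2, chrV:222339-222538, + strand: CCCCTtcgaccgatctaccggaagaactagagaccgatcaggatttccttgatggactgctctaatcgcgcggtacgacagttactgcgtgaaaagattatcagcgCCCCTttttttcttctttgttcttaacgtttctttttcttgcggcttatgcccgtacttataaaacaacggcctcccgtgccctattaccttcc
EDC1, chrVII:81287-81486, − strand: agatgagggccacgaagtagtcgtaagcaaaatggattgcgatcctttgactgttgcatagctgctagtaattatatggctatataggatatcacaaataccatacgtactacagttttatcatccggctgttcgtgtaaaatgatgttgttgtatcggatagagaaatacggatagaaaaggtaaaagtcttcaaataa
The EDC2 window holds 2 matches, starting 300 and 194 bases before the coding start, and the EDC1 window holds 0. The outermost 65 bases of the EDC2 window, with the first match, lie in the coding part of YER034W, and the outermost 61 of the EDC1 window lie in NIF3. Over the whole 300 bases, PAT1 and SBP1 had 1 match each, at 210 and 200 bases, and the other 7 members had 0. Of 5941 upstream regions of this length, 22.3% held at least 1 match and 3.5% at least 2. A match describes letters in a window and was not tested as a site.

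EDC3 (YEL015W, chrV:126629-128284, + strand) is the deleted gene and checks the labels. It had 764 and 857 reads in untreated WT and 2 and 4 in the untreated mutant. In perchlorate it had 1073 and 745 reads in WT and 1 in each mutant library. The mutant to WT ratio was 0.00365 in untreated cells (exact 95% interval 0.00134 to 0.00796) and 0.00116 in perchlorate (0.000141 to 0.00421); intervals here cover counting error only. The genes beside EDC3 were not called: GTT3, NPP2 and VAC8 had log2 changes of −0.31 to 0.22 and adjusted p of 0.0631 to 0.991 over both genotype comparisons, and YEL014C had at most 2.27 normalized reads. In WT, EDC3 read 775 and 977 untreated against 884 and 773 in perchlorate (log2 fold change −0.07 ± 0.16 (SE), adjusted p = 0.766). It read 1128 and 1201 unshocked against 1215 and 1255 shocked (0.09 ± 0.08, adjusted p = 0.465). LSM4 checks nothing here, since part of its coding sequence remains; it read 612 and 798 in untreated WT and 642 and 681 in the untreated mutant.

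With perchlorate, EDC2 rose and DCP1 and PAT1 fell in both strains. In WT, 1 of the 10 members rose (EDC2) and 2 fell (DCP1 and PAT1), against 26.5% of all 5664 transcripts called, 14.3% higher and 12.1% lower. In the mutant, 9 members could be tested, since EDC3 was below the mean of 10. There 1 rose (EDC2) and 3 fell (DCP1, PAT1 and DHH1), against 33.7% of 5670 called, 18.0% higher and 15.7% lower. The members' share called was near the background in both strains. Their median log2 change was −0.05 in WT and −0.15 in the mutant, beside 0.00 for all transcripts tested in each. In WT the 6 a-cell markers fell too, and in the mutant the 4 alpha-cell markers; their part in the members' changes was not tested.

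After the shock 3 members were lower and 0 higher. EDC1, EDC2 and SBP1 fell, against 35.4% of 5668 transcripts called, 18.1% higher and 17.3% lower. The members' share called was near the background. The median change of the 10 was −0.12, beside 0.00 for all tested. EDC1 averaged 52.0 RPKM (defined below) in shocked, 76.9 in unshocked and 58.6 in untreated WT. EDC2 averaged 101, 191 and 112 in the same order, and SBP1 537, 714 and 486. The tables were normalized separately, so untreated WT is a description here and was not tested. Of the mating-type markers, 5 of 6 a-cell genes (median 0.59) and 2 of 4 alpha-cell genes (median 1.08) were higher after the shock. The alpha-cell genes called were MF(ALPHA)2 and SAG1. MF(ALPHA)2 had only 5 and 10 reads unshocked and 23 and 158 shocked, and its call was lost under 4 of 13 alternatives. MF(ALPHA)1, not called, had 12 and 40 reads unshocked and 44 and 111 shocked. The part of these markers in the members' changes was not tested.

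**Figure D1:**
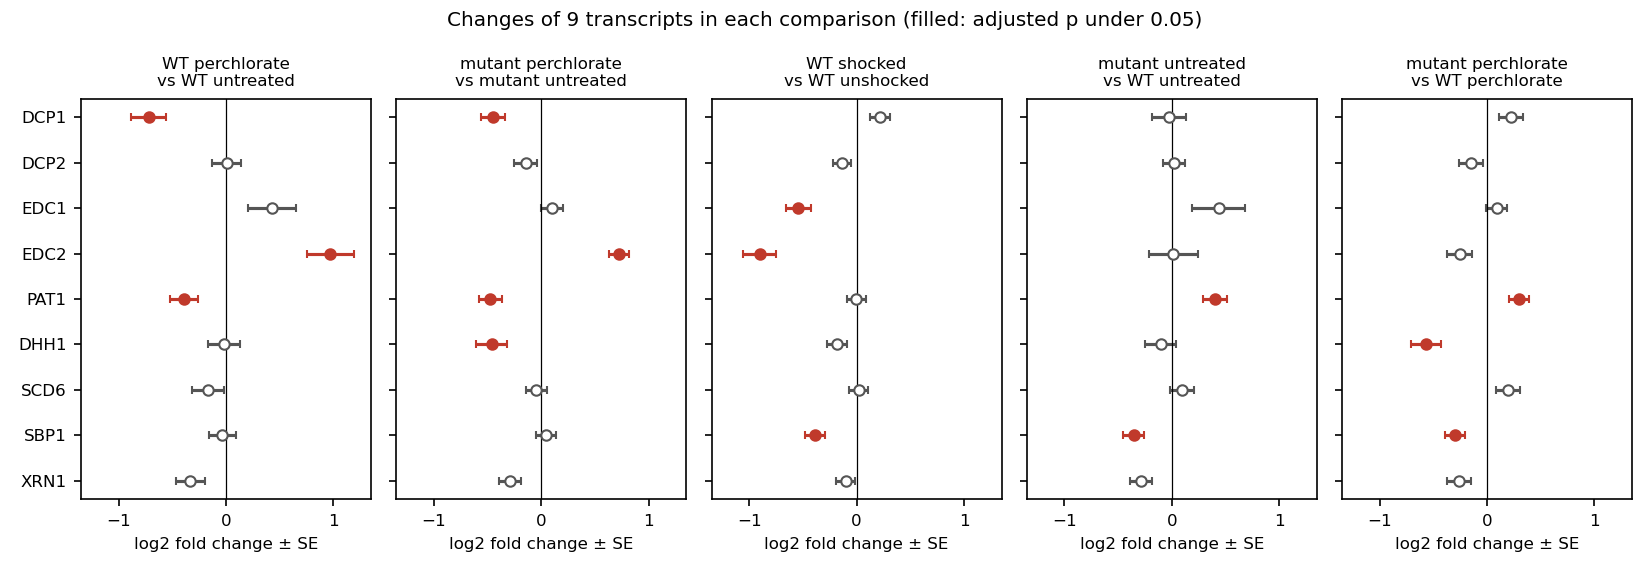
Log2 fold change (x axis) of 9 members (y axis) in each of 5 comparisons; points are limma estimates, bars their standard errors, and filled points passed an adjusted p of 0.05. EDC3, the deleted gene, is left out. EDC2 lies at 0.97 and 0.72 with perchlorate and at −0.90 after the shock.

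DCP2 (YNL118C, chrXIV:402652-405564, − strand), the catalytic subunit, was called in 0 of the 5 comparisons. It read 3663 and 3974 in untreated WT and 3996 and 3669 in perchlorate (log2 fold change 0.01 ± 0.13, adjusted p = 0.981). The ranges overlapped. In the mutant DCP2 read 4408 and 4034 untreated and 4137 and 3509.9 in perchlorate (−0.15 ± 0.11, adjusted p = 0.327). After the shock it read 5475 and 5064, below the unshocked 5836 and 5738, a difference that missed the threshold (−0.14 ± 0.09, adjusted p = 0.265).

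DCP1 (YOL149W, chrXV:44938-45633, + strand), the partner of Dcp2, fell with perchlorate in both strains. In WT it read 545 and 681 untreated and 354 and 386 in perchlorate (−0.72 ± 0.16, adjusted p = 0.0108). Both treated libraries were below both untreated ones. Mutant libraries read 603 and 705 untreated and 458 and 496 in perchlorate (−0.45 ± 0.12, adjusted p = 0.0163), again with no overlap. The WT call was lost without WT perchlorate library 1 (adjusted p = 0.119), and the mutant call without mutant untreated library 2 (0.0608) or mutant perchlorate library 1 (0.0574). After the shock DCP1 read 899.8 and 868 against 788 and 732 (0.22 ± 0.09, adjusted p = 0.108).

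The ratio of DCP1 to DCP2 within a library was lower with perchlorate in WT. As a ratio of RPKM (reads per kilobase of coding length, scaled to the library total), it was 0.623 and 0.717 in untreated WT and 0.370 and 0.440 in perchlorate. In the mutant it was 0.572 and 0.731 untreated and 0.463 and 0.591 in perchlorate, where the ranges overlapped. It was 0.565 and 0.534 in unshocked cells and 0.688 and 0.717 in shocked cells. A ratio within a library is free of its scaling, and with 2 libraries a group it was not tested.

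EDC2 (YER035W, chrV:222639-223076, + strand) encodes a small RNA-binding enhancer of decapping. In WT it read 966 and 584 untreated and 1635 and 1324 in perchlorate (0.97 ± 0.22, adjusted p = 0.0114), a 1.96-fold rise. Mutant libraries read 829 and 825 untreated and 1385 and 1342 in perchlorate (0.72 ± 0.09, adjusted p = 0.000459), a 1.65-fold rise. Treated and untreated libraries did not overlap in either strain. The shock had the opposite sign: 1395 and 1426 unshocked against 885 and 642 shocked (−0.90 ± 0.15, adjusted p = 0.00703), to 0.535 of the unshocked level. On leaving out 1 library, the log2 change of EDC2 in WT with perchlorate ranged from 0.61 to 1.33. The mutant rise passed under all 14 alternatives tried. The WT rise was lost without WT perchlorate library 1 (adjusted p = 0.0925), and the fall after the shock without unshocked library 1 (0.0891) or 2 (0.0910). In the authors' deposited table EDC2 is classed as up in both perchlorate comparisons and down after the shock, with log2 changes of 0.93, 0.72 and −0.89. Those classes come from the same reads. They are neutral for PAT1 and SBP1 in every comparison, and for DCP1 and DHH1 in the mutant with perchlorate. The classes use limits of 0.5 and −0.5 in log2, so a change inside them is neutral whatever its p. In the mutant with perchlorate the deposited q-value was 0.0188 for DCP1, 0.0166 for DHH1, 0.000887 for PAT1 and 0.841 for SBP1.

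EDC1 (YGL222C, chrVII:80659-81186, − strand), the paralog of EDC2, fell after the shock. It read 698 and 675 unshocked and 514 and 431 shocked (−0.54 ± 0.12, adjusted p = 0.0151), with no overlap. This call was lost without unshocked library 1 (adjusted p = 0.130) or 2 (0.110). In WT it read 616 and 361 untreated and 663 and 608 in perchlorate (0.43 ± 0.22, adjusted p = 0.180), with overlapping ranges. On leaving out 1 library, the change of EDC1 ranged from 0.04 to 0.81, the latter without WT untreated library 1, the higher of that pair. Mutant libraries read 734 and 659 untreated and 732 and 761 in perchlorate (0.10 ± 0.10, adjusted p = 0.475).

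WT untreated library 2 was low for both paralogs. There EDC1 had 0.569-fold and EDC2 0.586-fold the RPKM of library 1, a gap wider than in any other group, and the pair's ratio hardly differed. The RPKM ratio of EDC1 to EDC2 was 0.529 and 0.514 in untreated WT and 0.337 and 0.381 in perchlorate. In the mutant it was 0.734 and 0.663 untreated and 0.439 and 0.470 in perchlorate. It went the other way with the shock, from 0.415 and 0.393 to 0.481 and 0.557. In all 3 pairs of groups the ranges of this ratio did not overlap.

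**Figure D2:**
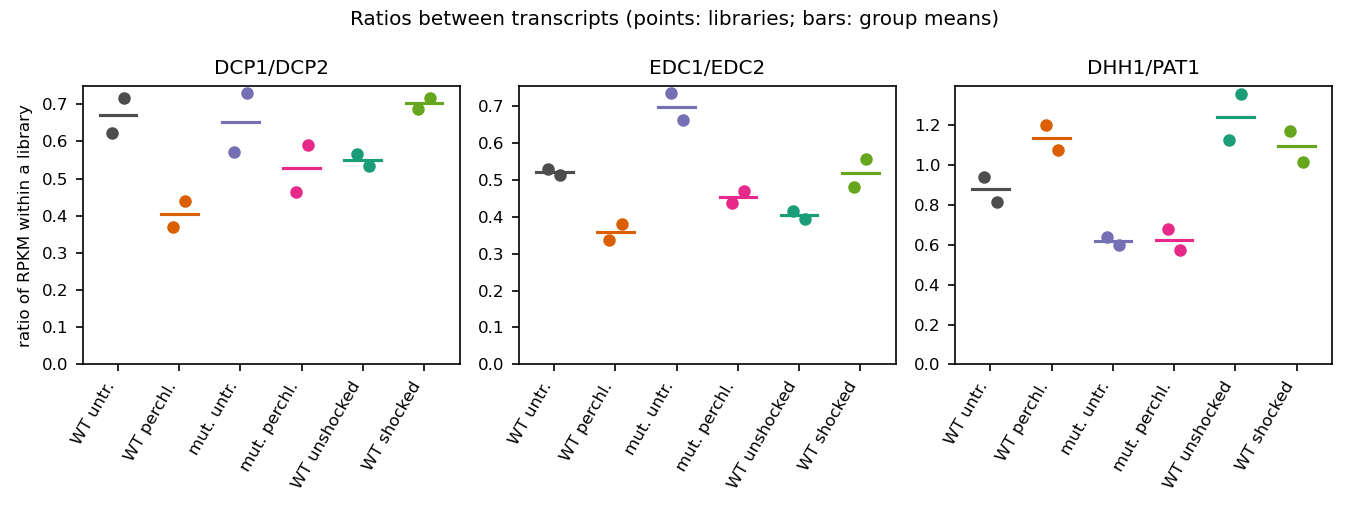
Ratio of RPKM within a library (y axis, from 0) for 3 pairs of members in the 6 groups; points are libraries, bars group means of 2. EDC1/EDC2 is lower with perchlorate in both strains (0.337 and 0.381 against 0.529 and 0.514 in WT), and DCP1/DCP2 is lower with perchlorate in WT.

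PAT1 (YCR077C, chrIII:250238-252628, − strand), a scaffold of the decapping complex, fell with perchlorate and was higher in the mutant. In WT it read 3124 and 3107 untreated and 2435 and 2315 in perchlorate (−0.39 ± 0.13, adjusted p = 0.0471). For the mutant the values were 4833 and 4147 untreated and 3361 and 3087 in perchlorate (−0.47 ± 0.11, adjusted p = 0.00893). Neither pair of groups overlapped. The mutant fall passed under all 14 alternatives. The WT fall sat at the threshold: the adjusted p was 0.0512 with TMM scaling, 0.169 with total-count scaling, 0.0527 with edgeR and 0.0762 without the intensity trend. It was 0.0589 without WT untreated library 2, and 0.202 or 0.256 without WT perchlorate library 1 or 2. After the shock PAT1 read 2403 and 2516 against 2600.2 and 2332 (−0.0022 ± 0.09, adjusted p = 0.987).

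DHH1 (YDL160C, chrIV:170410-171930, − strand), the DEAD-box helicase, fell with perchlorate in the mutant. There it read 1969 and 1576 untreated and 1454 and 1125 in perchlorate (−0.46 ± 0.15, adjusted p = 0.0371). The call was lost without mutant untreated library 1 (adjusted p = 0.0655), without mutant perchlorate library 2 (0.156) and without the intensity trend (0.0929). In WT it read 1872 and 1614 untreated and 1861 and 1586 in perchlorate (−0.02 ± 0.15, adjusted p = 0.945), and the ranges overlapped. The difference between these responses did not pass its own test (interaction −0.44 ± 0.23, adjusted p = 0.448). After the shock DHH1 read 1789 and 1629 against 1866 and 2015 (−0.18 ± 0.09, adjusted p = 0.166).

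SBP1 (YHL034C, chrVIII:33193-34077, − strand), an RGG-motif protein that binds eIF4G, fell after the shock. It read 11181 and 10203 unshocked and 8209.8 and 8119 shocked (−0.39 ± 0.10, adjusted p = 0.0246), with no overlap. The call was lost on leaving out any 1 of the 4 libraries: 0.101 and 0.0620 without unshocked library 1 or 2, and 0.0572 and 0.0783 without shocked library 1 or 2. With perchlorate it read 6603 and 6711 against 6776 and 6868 in WT (−0.04 ± 0.13, adjusted p = 0.863) and 5949.9 and 6019.9 against 6079 and 5555 in the mutant (0.04 ± 0.09, adjusted p = 0.755).

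SCD6 (YPR129W, chrXVI:792687-793736, + strand), another RGG-motif repressor of translation, was called in 0 of the 5 comparisons. It read 1183 and 1287 in untreated WT and 1195 and 1008 in perchlorate (−0.17 ± 0.14, adjusted p = 0.416). Mutant values were 1399.6 and 1467 untreated and 1449.8 and 1327 in perchlorate (−0.05 ± 0.10, adjusted p = 0.735). Shocked and unshocked cells overlapped at 1637 and 1531 against 1638 and 1492 (0.02 ± 0.09, adjusted p = 0.894).

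XRN1 (YGL173C, chrVII:175527-180113, − strand), the exonuclease, was also called in 0 of the 5 comparisons, though both treated libraries were lower in each perchlorate comparison. In WT it read 6624 and 5904 untreated and 5285 and 4667 in perchlorate (−0.33 ± 0.14, adjusted p = 0.0987). In the mutant it read 5789 and 5411 untreated and 4936 and 4238 in perchlorate (−0.29 ± 0.10, adjusted p = 0.0575). On leaving out 1 library the second value ranged from −0.40, without mutant perchlorate library 1, to −0.18. After the shock XRN1 read 5956 and 6126 against 6765 and 6216 (−0.10 ± 0.09, adjusted p = 0.410).

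Between genotypes, EDC3 apart, the members differed modestly. In untreated cells PAT1 was higher in the mutant and EDC3 and SBP1 lower, 3 of 10 members against 22.5% of 5665 transcripts called, 11.0% higher and 11.6% lower. In perchlorate PAT1 was higher and EDC3, DHH1 and SBP1 lower, 4 of 10 against 31.9% of 5701, 16.3% higher and 15.6% lower. EDC3 was the only one of these whose call held under all 14 alternatives. Its log2 changes were −7.87 ± 0.32 (adjusted p = 2.78e-05) and −8.86 ± 0.23 (adjusted p = 1.01e-07), and they depend on the value added before the logarithm. The call of EDC3 follows from its deletion. With EDC3 left out, the members' share called was near the background both times.

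PAT1 read 3076 and 3091 in untreated WT and 4394 and 3764 in the untreated mutant (0.40 ± 0.11, adjusted p = 0.0462). In perchlorate it read 2695 and 2582 in WT and 3386 and 3098 in the mutant (0.30 ± 0.10, adjusted p = 0.0435). The mutant libraries were above the WT libraries both times. Leaving out any 1 library ended the call, with adjusted p of 0.0633 (WT library 1), 0.0671 (WT library 2), 0.459 (mutant library 1) and 0.0890 (mutant library 2) in untreated cells. In perchlorate these were 0.0887, 0.149, 0.325 and 0.0920 in the same order.

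SBP1 read 6672 and 6832 in untreated WT and 5527 and 5042 in the untreated mutant (−0.35 ± 0.10, adjusted p = 0.0410). In perchlorate it read 7307 and 7486 in WT and 5993 and 6042 in the mutant (−0.30 ± 0.09, adjusted p = 0.0405). Both mutant libraries were lower each time, but total-count scaling gave −0.19 (adjusted p = 0.177) for the first difference and −0.14 (adjusted p = 0.273) for the second. The untreated call was lost without WT library 2 (0.0622), mutant library 1 (0.163) or mutant library 2 (0.393). The perchlorate call was lost on leaving out any 1 library (WT 1 0.0969, WT 2 0.129, mutant 1 0.255, mutant 2 0.220).

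DHH1 read 1843 and 1606 in untreated WT and 1790.5 and 1430.4 in the untreated mutant (−0.10 ± 0.15, adjusted p = 0.651), with overlap. In perchlorate it read 2059 and 1769 in WT and 1465 and 1129 in the mutant, with no overlap (−0.57 ± 0.14, adjusted p = 0.0139). That call was lost with total-count scaling (adjusted p = 0.101), without WT perchlorate library 1 (0.0749) and without mutant perchlorate library 2 (0.0633). The RPKM ratio of DHH1 to PAT1 was 1.20 and 1.08 in WT with perchlorate and 0.680 and 0.573 in the mutant with perchlorate; in untreated cells it was 0.942 and 0.817 in WT and 0.641 and 0.597 in the mutant.

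The remaining members missed the threshold between genotypes. EDC1 read 606 and 359 in untreated WT and 667 and 598 in the mutant (0.44 ± 0.24, adjusted p = 0.253). On leaving out 1 library this change ranged from 0.06 to 0.81, the latter without WT untreated library 1. Between genotypes in perchlorate EDC1 changed by 0.09 ± 0.10 (adjusted p = 0.514). EDC2 in perchlorate read 1809 and 1477 in WT and 1395 and 1347 in the mutant (−0.25 ± 0.11, adjusted p = 0.122). On leaving out 1 library its change ranged from −0.40, without WT perchlorate library 2, to −0.11. XRN1 read 6522 and 5873 in untreated WT and 5263 and 4911 in the mutant (−0.28 ± 0.10, adjusted p = 0.0940). On leaving out 1 library its change ranged from −0.36, without WT untreated library 2, to −0.21. In perchlorate XRN1 read 5848 and 5206 against 4971 and 4254 (−0.26 ± 0.11, adjusted p = 0.109). DCP1, DCP2 and SCD6 had log2 changes of −0.15 to 0.22 over both comparisons, and DCP1 in perchlorate passed with total-count scaling (0.38, adjusted p = 0.0379).

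The response of the mutant to perchlorate was set against that of WT in an interaction fit over 8 libraries. It called 0 of the 10 members, against 2.53% of 5689 transcripts, 1.86% higher and 0.668% lower. At an unadjusted p under 0.05 it held 1 member, the deleted EDC3, and edgeR and DESeq2 each held 0 by either measure. EDC3 passed the filter on the mean through its WT reads. With 1 to 4 reads in each mutant library, its value measures no response to perchlorate. EDC2 differed by −0.25 ± 0.29 (adjusted p = 0.771), EDC1 by −0.33 ± 0.30 (0.697) and DCP1 by 0.27 ± 0.20 (0.611). On leaving out 1 library, the value of EDC1 ranged from −0.71, without WT untreated library 1, to 0.06.

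Per length, SBP1 was the most abundant of the 10 in every library. Its level was 412 to 723 RPKM, at the 92.3 to 95.1 percentile of all transcripts. EDC2 spanned 82.9 to 265 RPKM over the 12 libraries, and its highest library held 3.20 times its lowest. XRN1 and DCP2 varied least, with the highest library at 1.49 times the lowest in each. In WT, EDC3 was the lowest of the 10 at 30.0 to 44.9 RPKM, except in WT perchlorate library 1, where DCP1 was lower.

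The groups' levels were set side by side only as a description, since the tables were normalized separately. EDC2 averaged 234 ± 45.1 RPKM (SD, n = 2) in WT with perchlorate and 216 ± 13.4 in the mutant with perchlorate, which overlapped. Unshocked WT had 191 ± 11.8, below both. The untreated mutant (123 ± 1.05), untreated WT (112 ± 41.3) and shocked WT (101 ± 20.4) came last and overlapped with their neighbours. With TMM scaling unshocked WT (196) stood above the mutant with perchlorate (192).

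PAT1 averaged 122 ± 11.7 RPKM in the untreated mutant, 93.6 ± 9.33 in the mutant with perchlorate, 82.3 ± 2.04 in untreated WT and 68.5 ± 5.57 in WT with perchlorate. Neighbours among these did not overlap, though with TMM scaling untreated WT (90.5) was above the mutant with perchlorate (83.4). Unshocked (60.9 ± 1.86) and shocked WT (59.9 ± 3.45) were lowest and overlapped. DCP1 was highest in shocked WT (73.9 ± 0.0423) and lowest in WT with perchlorate (36.5 ± 0.593), with the mutant with perchlorate next above it (47.5 ± 0.786).

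SBP1 averaged 714 ± 13.2 RPKM in unshocked WT and 537 ± 9.17 in shocked WT, which overlapped WT with perchlorate (518 ± 17.7). Untreated WT had 486 ± 5.60, the mutant with perchlorate 469 ± 14.7 and the untreated mutant 428 ± 22.1. Total-count scaling, which RPKM uses, moved the median log2 change of all transcripts to 0.13 in WT with perchlorate, 0.18 between untreated genotypes and 0.15 between genotypes in perchlorate. With TMM scaling the WT order turned, with 535 untreated and 512 in perchlorate. DHH1, SCD6, DCP2 and XRN1 group means spanned 59.0 to 78.3, 72.5 to 91.8, 82.7 to 118 and 69.5 to 86.3 RPKM.

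**Figure D3:**
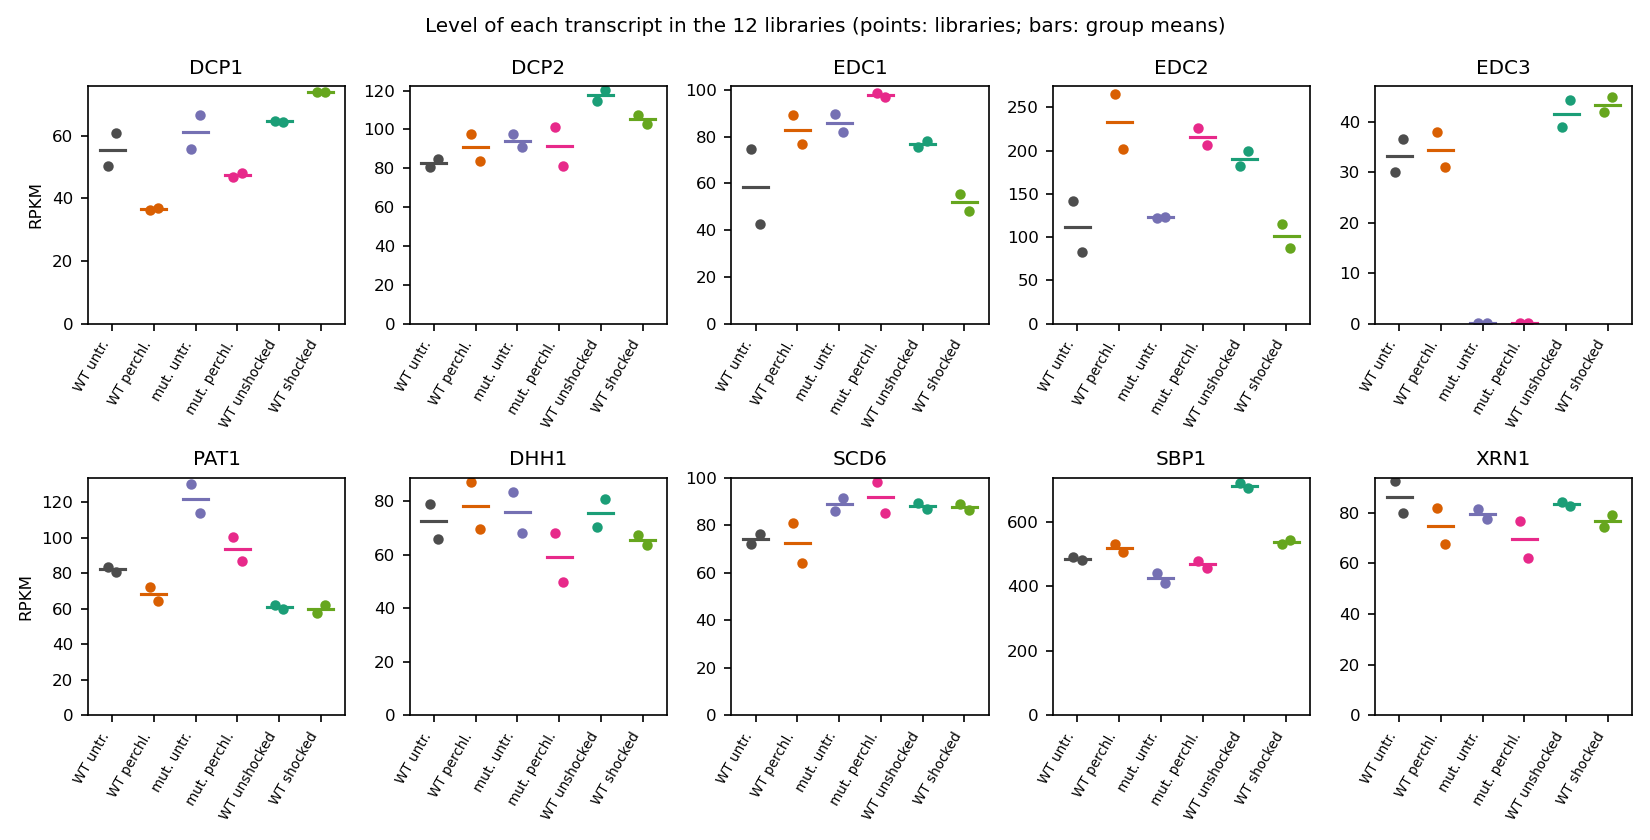
RPKM (y axis, from 0, own range in each panel) of the 10 members in the 6 groups; points are libraries, bars group means of 2. EDC2 is high in both perchlorate groups and unshocked WT, EDC3 is near 0 in both mutant groups (0.123 and 0.0405 RPKM), and PAT1 is highest in the untreated mutant (122 RPKM).

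Over the 12 libraries, among 5469 transcripts with a mean of at least 50 reads, the profile of EDC2 was most like those of DCS1 (Pearson r = 0.97), TPS1 (0.97) and ARP2 (0.97). That of DCP1 was most like HTA2 (0.95), BIM1 (0.95) and TAN1 (0.94), and that of PAT1 most like SLS1 (0.96), MCM3 (0.94) and ASN1 (0.94). DHH1 was nearest to KCS1 (0.88), PBS2 (0.83) and DOA4 (0.82), and SBP1 to YGR111W (0.95), PIG2 (0.94) and ZRT3 (0.94). These are descriptions over libraries that share groups and depth.

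The decay genes around the core were read from 7 lists. Of 7 cap-scavenging and decapping-associated genes, DCS1 and DCS2 rose with perchlorate in both strains and fell after the shock, as EDC2 did. Dcs1 hydrolyses the cap fragments left by 3′ to 5′ decay, and Dcs2 is its stress-induced relative. DCS2 read 868 and 398 in untreated WT and 2275 and 1944 in perchlorate (1.84 ± 0.29, adjusted p = 0.00184). In the mutant it read 716 and 502 untreated and 2053 and 2219 in perchlorate (1.83 ± 0.15, adjusted p = 3.1e-05). After the shock it fell from 3903 and 3454 to 1061 and 698 (−2.09 ± 0.19, adjusted p = 0.00096). DCS1 changed by 0.96 ± 0.22, 0.88 ± 0.13 and −1.12 ± 0.09 in the same comparisons, and all 6 calls held under every alternative except that of DCS1 in WT without WT perchlorate library 1 (adjusted p = 0.0945). Like EDC1 and EDC2, both were lowest among WT untreated and perchlorate libraries in WT untreated library 2. The upstream 300 bases of DCS2 held 2 matches to AGGGG or CCCCT and those of DCS1 0.

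With perchlorate, the calls in the other lists were falls. With 12.1% of all transcripts lower in WT, these were 1 of 8 Lsm ring genes, 2 of 14 Ski and exosome genes and 2 of 8 genes of cap binding and translational repression, and 0 of 11 deadenylase genes. The largest was TIF4631, which encodes the scaffold eIF4G (5851 and 7316 untreated, 3819 and 4078 in perchlorate, −0.73 ± 0.15, adjusted p = 0.00672). In the mutant they were 3 of 8 Lsm, 4 of 14 Ski and exosome, 5 of 8 cap binding and 2 of 11 deadenylase genes, and 1 of 2 genes of the nuclear 5′ exonuclease, with 15.7% of all transcripts lower. The examples were LSM8 (−0.75 ± 0.19), RAT1, the nuclear exonuclease (−0.59 ± 0.10, adjusted p = 0.0022), CAF40 (−0.46 ± 0.10), RRP45 (−0.45 ± 0.09) and TIF4631 (−0.65 ± 0.10). In the nonsense-mediated decay list 0 of 4 were called in either strain. The 3 WT counts were 0, 0 and 1 with total-count scaling and without WT perchlorate library 1 or 2, 4, 5 and 2 without WT untreated library 1, and 2, 1 and 4 without WT untreated library 2. Deadenylase genes then numbered 2 without WT untreated library 1. In the mutant the Lsm count was 0 with DESeq2 and without perchlorate library 1, and 1 with total-count scaling and without untreated library 2. The Ski and exosome count was 1 without mutant perchlorate library 1. The deadenylase count was 1 without mutant perchlorate library 2 and with total-count scaling.

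After the shock, 11 of 14 Ski and exosome genes of 3′ to 5′ decay were higher, 0 were lower and 3 were not called, with 18.1% of all transcripts higher and 17.3% lower. Those not called were SKI3, SKI7 and SKI8. SKI2 was called at 0.26 (adjusted p = 0.0484), and this call was lost under 9 of 14 alternatives. The other calls were genes of the exosome core, SKI6 among them. The median log2 change of the list was 0.48, beside 0.00 for all tested. MTR3, a core exosome subunit, read 319.6 and 348 unshocked and 635 and 673 shocked (0.97 ± 0.10, adjusted p = 0.00146). CSL4 (0.83 ± 0.12) and RRP4 (0.77 ± 0.16) followed. RAT1, the nuclear 5′ to 3′ exonuclease, and its partner RAI1 rose as well (0.69 ± 0.09 and 0.62 ± 0.15). Without unshocked library 1, and again without unshocked library 2, 1 of the 14 was called, MTR3. RAT1 was lost without unshocked library 2 (adjusted p = 0.0592), and RAI1 without unshocked library 1 (0.178) or 2 (0.0865) or shocked library 2 (0.0543). TIF4631 rose (0.75 ± 0.10), as did GIS2 (1.13 ± 0.26), a zinc-finger RNA-binding protein gene, while NGR1 fell (−0.53 ± 0.10). NGR1 was lost without unshocked library 1 (adjusted p = 0.111) or 2 (0.0794).

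Between genotypes, 2 of 14 Ski and exosome genes were higher in the mutant in untreated cells (RRP45 and RRP40) and 3 in perchlorate (RRP45, MTR3 and RRP43), with 11.0% and 16.3% of all transcripts higher. The perchlorate count was 5 with TMM scaling or edgeR and 6 with total-count scaling, and 2 with DESeq2. RRP40 was lost under 4 alternatives (adjusted p up to 0.353) and RRP43 under 5 (up to 0.15). RRP45, an exosome subunit, read 961 and 1031 in untreated WT and 1846 and 2001 in the mutant (0.95 ± 0.11, adjusted p = 0.0021), and 792 and 781 against 1549.5 and 1575 in perchlorate (0.99 ± 0.09, adjusted p = 9.6e-05). RPM2, a gene of mitochondrial RNase P whose protein has also been found in yeast P-bodies, was higher by 0.96 ± 0.13 and 0.70 ± 0.14. These 4 calls held under all 14 alternatives. LSM7 was lower (−0.55 ± 0.12 and −0.42 ± 0.11), as was the poly(A)-binding protein gene PAB1 (−0.49 ± 0.11 and −0.40 ± 0.12). The calls of LSM7 and PAB1 were lost with total-count scaling and without at least 1 library, with adjusted p up to 0.268. In the interaction 0 genes of these 7 lists were called.

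**Figure D4:**
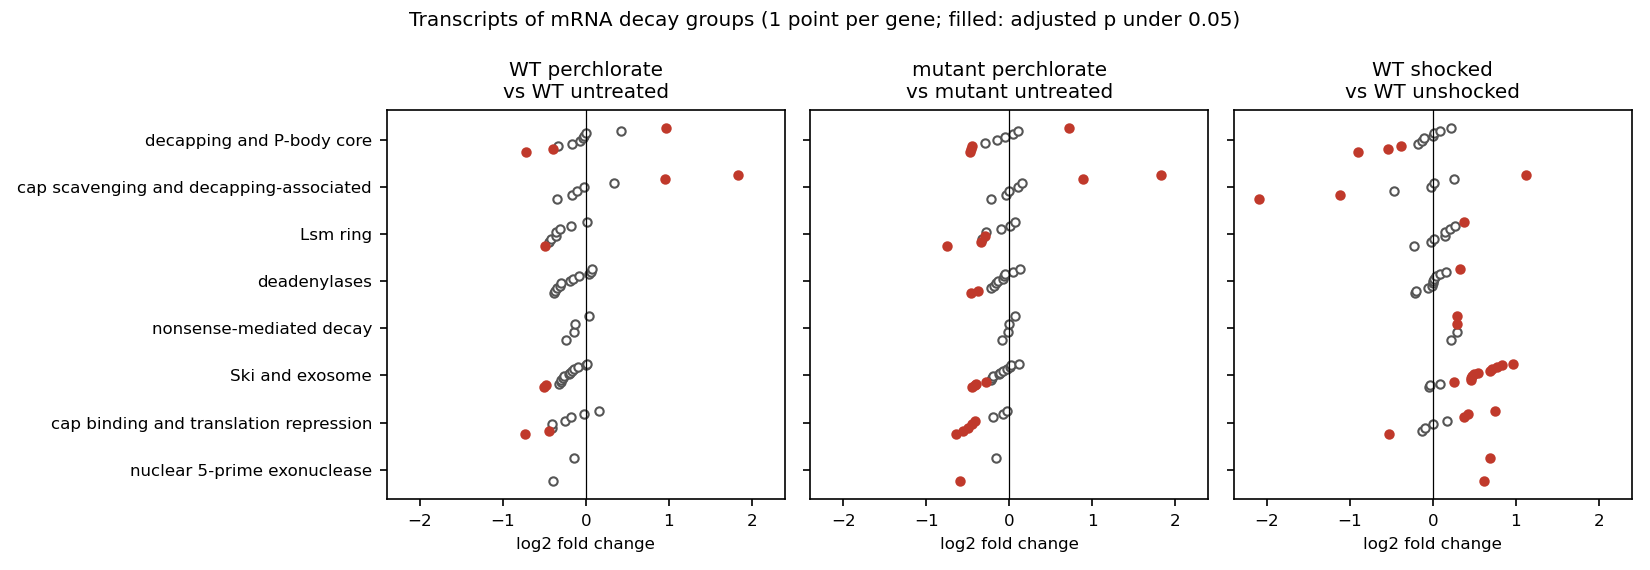
Log2 fold change (x axis) of each gene in 8 groups of mRNA decay genes (y axis) with perchlorate in WT, with perchlorate in the mutant and after the shock; 1 point per gene, filled where the adjusted p was under 0.05. DCS2 lies at 1.84, 1.83 and −2.09, and 11 of 14 Ski and exosome genes are filled and to the right of 0 after the shock.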

How the data were processed

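The 12 libraries were made from hot-phenol RNA with a directional kit, per the labels' protocols, and grouped by their titles. Per the submitters' processing notes, the authors used Trim Galore, FastQC and HISAT2. How reads were counted, on which strand and on which build is not given in the sources used here. The deposited signal values are normalized counts, reads divided by a size factor within each of 5 tables, and the deposited log2 fold changes, p-values and q-values come from the authors' DESeq2 1.34.0. Their classes use limits of 0.5 and -0.5 in log2, per the file headers.

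Dividing by the value of 1 read gave back whole reads (100.0% within 0.01 reads). Of 5967 transcripts, 5941 were named by accession and 26 by locus tag; 3 more are not reported here. RPKM used the annotated transcript length, which is a coding length (99.2% are multiples of 3). Transcripts with a mean of at least 10 were tested within each table with limma 3.58.1 (R 4.3.3; eBayes with a trend, log2 of the value plus 1, Benjamini-Hochberg over all transcripts). Since the tables hold normalized values, edgeR 4.0.16 and DESeq2 1.42.0 on recovered reads were alternatives, beside other pseudocounts, filters and scalings, a replicate block and leaving out each library. The fit was tested on simulated data. Each library holds 14108937 to 18360737 reads, and with 2 libraries a group no single-gene permutation test could pass 0.05. The members and gene lists were chosen with earlier results of these data known. All 10 members are named, though not each in every comparison. Of the related lists, examples of the called genes are named, with a few others chosen after their values were seen. Calls left unnamed include LSM8 between genotypes in perchlorate (-0.65) and EAP1 between untreated genotypes (0.53). After the shock they include LSM3 (0.38), NOT3 (0.33), NAM7 (0.29) and EBS1 (0.29).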

Additional observations from a re-analysis of the deposited data

How the results depend on the processing

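The calls rest on 2 libraries a group. On leaving out 1 library, transcripts called in WT with perchlorate (1499) ranged from 511 to 2380, between untreated genotypes (1277) from 755 to 1553, after the shock (2007) from 453 to 2081 and in the interaction (144) from 75 to 380. Members called ranged from 0 to 4 of 10 in WT with perchlorate, from 1 to 3 in both genotype comparisons, from 0 to 2 after the shock and from 0 to 1 in the interaction. The cause was not tested.

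Replicate numbers are shared by the groups, but nothing says that they pair libraries; with 2 pairs, the replicate differences correlated at 0.12 to 0.51. With a replicate block, 2458, 2482, 3183 and 260 transcripts were called in WT with perchlorate, between untreated genotypes, between genotypes in perchlorate (1818 without the block) and in the interaction. The block gave 5, 5 and 9 members in the first 3 of these. It added EDC1 (adjusted p = 0.0164) and XRN1 (0.0102) in WT with perchlorate, XRN1 (0.0132) in the mutant with perchlorate, and EDC1 (0.00174) and XRN1 (0.00737) between untreated genotypes. Between genotypes in perchlorate it added EDC2 (0.0160), DCP1 (0.0489), DCP2 (0.0380), XRN1 (0.00185) and SCD6 (0.0265). Without the intensity trend 1 and 2 members were called between genotypes untreated and in perchlorate, and DESeq2 called 224 transcripts in the interaction.

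Some values that were not called changed sign. With total-count scaling these were EDC3 (0.0513), DHH1 (0.108) and SBP1 (0.0904) in WT with perchlorate, SCD6 (0.0446) in the mutant with perchlorate, DCP1 (0.142) and DHH1 (0.0633) between untreated genotypes, DCP2 (0.00283) between genotypes in perchlorate and SCD6 (-0.00502) after the shock. EDC2 between untreated genotypes was -0.0179 with edgeR and -0.0276 with DESeq2. On leaving out 1 library, uncalled changes crossed 0 in WT with perchlorate EDC3 (-0.241 to 0.0923), DCP2 (-0.0564 to 0.0667) and DHH1 (-0.133 to 0.0981), in the mutant with perchlorate SCD6 (-0.11 to 0.0168) and SBP1 (-0.0225 to 0.107), between untreated genotypes EDC2 (-0.34 to 0.371), DCP1 (-0.193 to 0.142), DCP2 (-0.0453 to 0.0869) and DHH1 (-0.266 to 0.0576), after the shock PAT1 (-0.0806 to 0.0761) and SCD6 (-0.0493 to 0.0855) and in the interaction EDC1 (-0.71 to 0.0579), EDC2 (-0.612 to 0.114), PAT1 (-0.193 to 0.0278), XRN1 (-0.0687 to 0.151) and SCD6 (-0.000329 to 0.245).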

Other observations

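BY4741 lacks working LEU2 and MET17 genes, and reads on them were few but not 0 in some WT libraries. WT perchlorate library 2 held 23 LEU2 and 51 MET17 reads, unshocked library 2 held 20 and 10, and shocked library 2 held 23 and 52. Shocked library 1 held 5 and 2, and the other 4 WT libraries held 0. In the mutant, MET17 had 8873 and 9926 reads untreated and 27802 and 30889 in perchlorate. HIS3 and URA3, read as strain markers too, had reads in every library. HIS3 had 880 to 1346 reads in the WT libraries and 1225 to 1867 in the mutant ones. URA3 had 2071 to 4198 in WT and 6739 to 8675 in the mutant.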
